A study of Arabidopsis thaliana with 21 samples.

Results

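Transcripts of 6 plasma membrane proton pump genes and 4 genes for PP2C.D phosphatases, which switch these pumps off, were followed in Arabidopsis thaliana root tips. The 10 loci were chosen by name among the 27586 loci in the files. The pumps were AHA1 (AT2G18960), AHA2 (AT4G30190), AHA3 (AT5G57350), AHA4 (AT3G47950), AHA7 (AT3G60330) and AHA11 (AT5G62670). The phosphatases were PP2C.D1 (AT5G02760), PP2C.D2 (AT3G17090), PP2C.D5 (AT4G38520) and PP2C.D6 (AT3G51370). All 10 passed the filter on low counts that left 19809 genes for testing.

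The AHA pumps are P-type ATPases that carry protons out of the cell, which acidifies the wall, loosens it through expansins and energizes uptake by ion and sugar carriers. Phosphorylation of the threonine next to the last residue of a pump lets a 14-3-3 protein bind and holds the pump active. PP2C.D phosphatases remove that phosphate, and SAUR proteins, made in response to auxin, bind and inhibit the phosphatases. In roots AHA2 and AHA1 are known as the main pumps, AHA7 is known from root hairs and AHA3 from phloem companion cells.

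RNA was sequenced from 21 libraries in 7 groups of 3, each library made from 50 root tips of 1 to 2 mm cut from 5-day-old plants. Libraries of a group are biological replicates by their labels, which do not say what else they share, so p-values measure the spread between these libraries. Total depth was 17.45 to 23.88 M estimated reads per library. The series was titled as a study of how the auxin coreceptor IAA17/AXR3 acts on cell elongation through auxin and gibberellin perception.

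In the chemical experiment Col-0, the wild type, was given for 20 min 10 nM indole-3-acetic acid (IAA, the natural auxin), 10 µM PEO-IAA (an auxin antagonist made from IAA by adding a phenyl ketone side chain) or a mock of ethanol. In the heat experiment Col-0 and the line HS::AXR3-1 (HS:AXR3-1 in the sample labels), in which a heat shock promoter drives AXR3-1, were both held at 37 °C for 40 min and then left for 80 min. In the estradiol experiment Col-0 and a line with AXR3-1 under the estradiol-inducible XVE system both received 5 µM estradiol for 2 h. The label of that line is XVE:AXR3-1-RFP, and the design text gives the promoter g1090 and the tag mCherry. It is written XVE>>AXR3-1 here. AXR3-1 is a form of the IAA17 repressor that auxin cannot bring to degradation, and Col-0 is the background of both lines.

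The level of AXR3 (AT1G04250), which counts native and transgene reads together, was 953 ± 226 CPM (reads per 1 M, SD, n = 3) in the estradiol-inducible line, against 156 ± 16.8 in Col-0 on estradiol. In HS::AXR3-1 it was 181, 298 and 861 CPM in replicates 1 to 3, against 129 ± 30.5 in heat-shocked Col-0. The library labelled HS::AXR3-1 replicate 1 stood apart from the other heat-treated ones. Its summed level of 4 heat shock genes was 48.7 CPM, while the other 5 heat-treated libraries held 2560 to 8250 CPM and the 15 libraries without heat 41.7 to 204. It goes against its heat label in this measure. For AHA7, PP2C.D2, PP2C.D1 and AHA2 the log2 changes in the heat experiment are given with and without it. Other results of that experiment include it unless stated.

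The bases upstream of the genes for which the estradiol experiment gave the clearest differences, AHA7 and PP2C.D2, are shown here in the direction of the gene, from RefSeq on TAIR10.1. AHA7 is annotated at chr3:22298373-22303718 on the plus strand, and its 250 bases at chr3:22298123-22298372 overlap the locus AT3G60328. PP2C.D2 is annotated at chr3:5826586-5829900 on the plus strand, and its 250 bases are chr3:5826336-5826585. Capitals mark the core of the auxin response element, TGTC, or its complement GACA.
AHA7: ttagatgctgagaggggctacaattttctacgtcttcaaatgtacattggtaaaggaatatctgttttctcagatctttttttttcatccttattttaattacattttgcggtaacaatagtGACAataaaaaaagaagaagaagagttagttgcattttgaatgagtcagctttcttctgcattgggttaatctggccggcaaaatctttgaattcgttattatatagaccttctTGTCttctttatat
PP2C.D2: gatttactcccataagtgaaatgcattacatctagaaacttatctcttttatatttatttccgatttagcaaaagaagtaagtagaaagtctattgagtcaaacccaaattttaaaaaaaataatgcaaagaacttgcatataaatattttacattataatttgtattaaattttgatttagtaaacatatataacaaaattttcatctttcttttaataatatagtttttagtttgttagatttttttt
The AHA7 stretch holds 2 cores and the PP2C.D2 stretch 0. Over 250 bases before to 50 after the gene start, TGTC on either strand was in 81.5% of the windows of 27443 protein-coding genes, and it was missing from those of AHA2 and PP2C.D2. The longer element TGTCTC, which contains the core, was in 14.2% of all windows and in those of AHA4 and AHA7, with 1 match each. In AHA4 and in AHA7 it lies in the 50 bases after the start. TGTCGG, which contains the core as well, was in 5.12% of all windows and in 0 of the 10.

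The pumps differed widely in transcript level. In TPM, which is per transcript length and so compares genes, AHA2 held a mean of 309 over the 21 libraries (184 to 636) and AHA1 136 (102 to 193). AHA11 held 22.9 TPM, AHA7 17.1 (3.71 to 36.3), AHA3 7.91 and AHA4, a pump known from the root endodermis, 1.55. AHA2 and AHA1 were thus at the percentiles 97.3 and 93.6 of all tested genes by mean TPM, and AHA4 at 11.3.

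**Figure D1:**
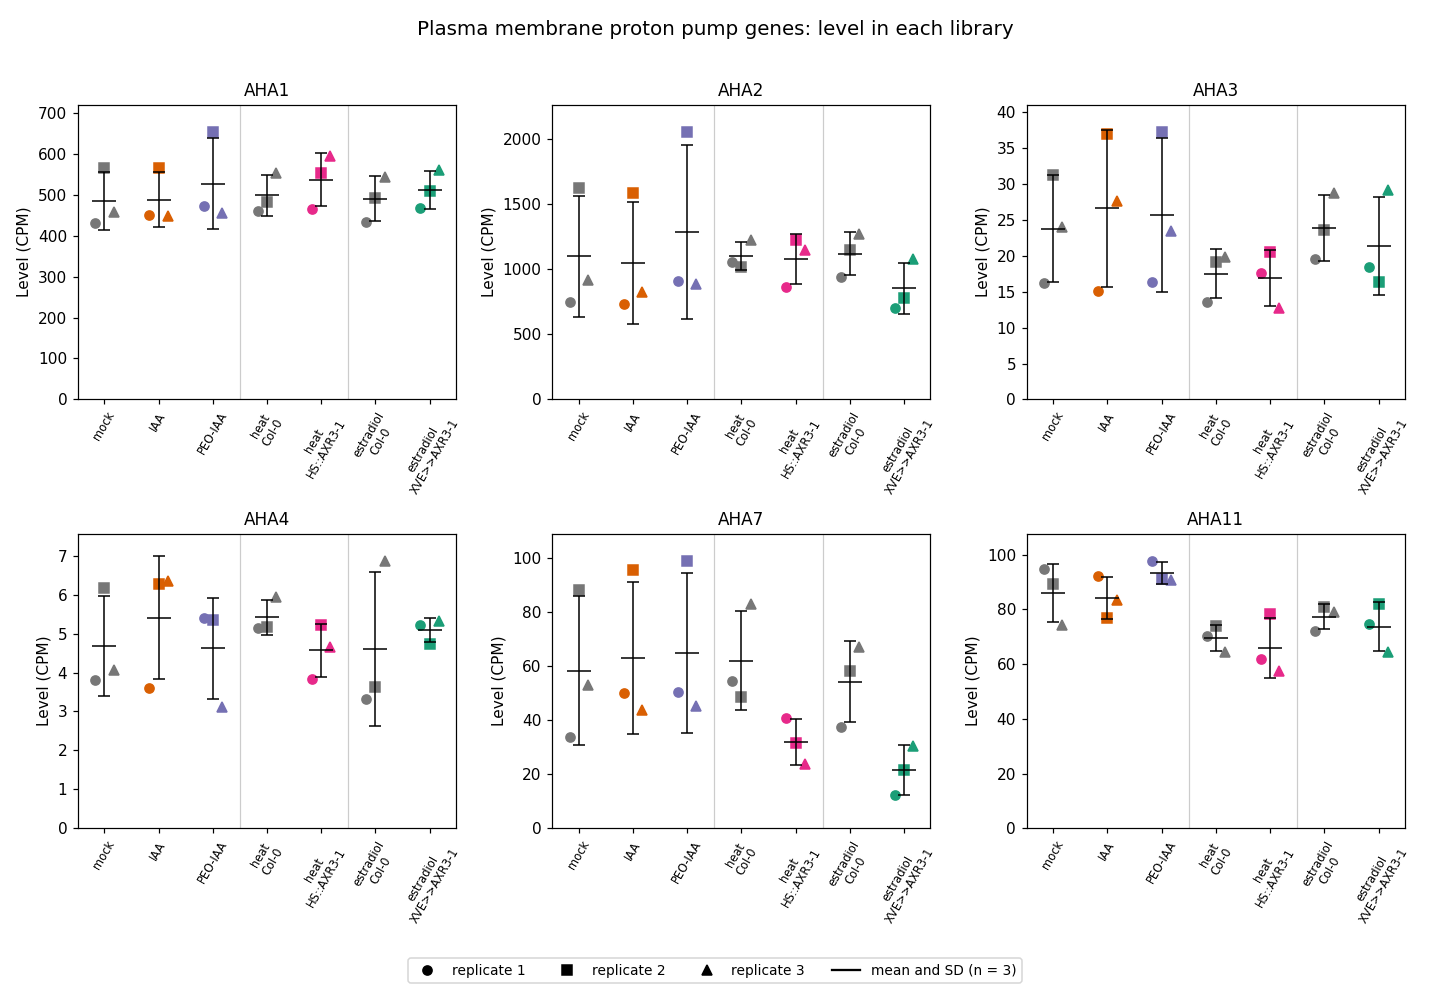
Level of each proton pump gene in CPM (y axis, from 0) in the 7 groups (x axis), with a symbol per replicate and the mean and SD of 3 libraries in black. The replicate 2 squares of mock, IAA and PEO-IAA stand above the other libraries of those groups for AHA1, AHA2, AHA3 and AHA7, and AHA7 is low in both AXR3-1 lines.

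AHA1 and AHA2 together made 86.8% to 94.0% of the transcripts of the 6 pumps in every library, by TPM. AHA2 alone made 54.6% to 69.9%. The ratio of AHA2 to AHA1 in TPM ran from 1.57 to 3.30. Its group mean was lowest in XVE>>AXR3-1, at 1.57, 1.61 and 2.03 by library, where estradiol-treated Col-0 held 2.27, 2.48 and 2.46. Col-0 libraries of the chemical experiment reached into the range of the line. They held 1.70 and 1.93 in IAA replicates 1 and 3 and 1.80 in mock replicate 1. The ratio of the heat-treated groups overlapped, at 2.11 ± 0.199 in HS::AXR3-1 and 2.33 ± 0.0954 in Col-0 (SD, n = 3). These ratios are a description and were not tested.

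**Figure D2:**
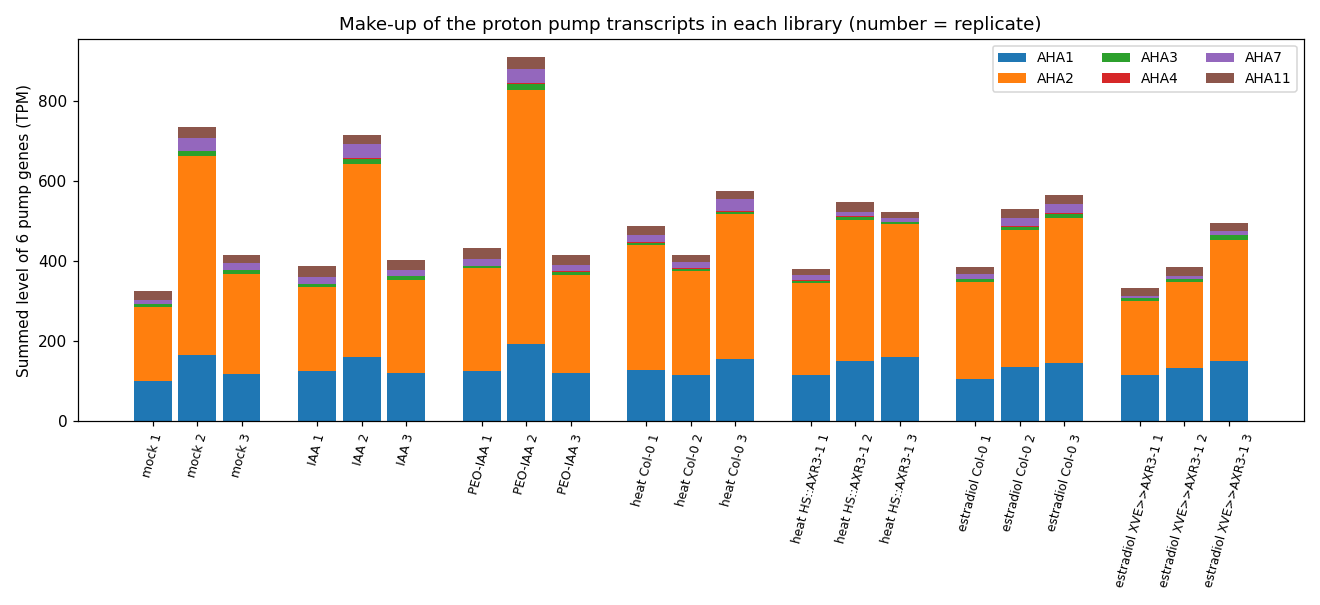
Summed TPM of the 6 pump genes (y axis) in each of the 21 libraries (x axis), with a colour per gene. The totals run from 327 to 909 TPM, the highest 3 being the replicate 2 libraries of PEO-IAA, mock and IAA, and AHA1 with AHA2 make up nearly all of each bar.

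Groups next to each other in mean level overlapped for every pump, while some groups farther apart did not. No such count was made over all genes. Ranked by mean CPM, 0 of the 6 neighbouring pairs of groups were free of overlap for each of the 6 pump genes, that is, some library of the lower group reached the range of the higher one. The highest group mean was 1.11 times the lowest for AHA1, 1.19 times for AHA4, 1.42 times for AHA11, 1.5 times for AHA2, 1.57 times for AHA3 and 3.02 times for AHA7. AHA7 ran from 21.5 CPM in XVE>>AXR3-1 and 32.0 in HS::AXR3-1 to 54.4 in estradiol-treated Col-0, 58.4 in mock, 62.2 in heat-shocked Col-0, 63.3 with IAA and 65.0 with PEO-IAA. Its XVE>>AXR3-1 libraries, at 12.3 to 30.7 CPM, lay below every Col-0 library, the lowest of which held 33.9 CPM in mock. Within groups the SD of log2 CPM was 0.55 for AHA7, 0.46 for AHA3, 0.45 for AHA2, 0.36 for AHA4, 0.19 for AHA1 and 0.15 for AHA11, beside a median of 0.26 over all tested genes.

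Much of that spread lay in the chemical experiment, where the replicate 2 libraries of all 3 treatments stood high for the same pumps. AHA2 held 1590 to 2060 CPM in these 3 libraries and 732 to 921 in the other 6. AHA7 held 88.2 to 99.2 against 33.9 to 53.3, AHA3 31.2 to 37.3 against 15.1 to 27.7, and AHA1 565 to 654 against 432 to 472. AHA11 and AHA4 overlapped between these sets, and so did the 4 phosphatases. The 3 replicate 1 libraries, in turn, were lowest for AHA3 at 15.1 to 16.3 CPM, and lowest for 4 phloem markers, with a summed 19.6 to 23.2 CPM against 42.8 to 63.8 in the other 6, and for 4 xylem markers, with 89.2 to 95.8 against 220 to 262. The phloem markers were highest in replicate 3, at 52.8 to 63.8 CPM. In replicate 2, where AHA3 was highest, they held 42.8 to 51.7 CPM. In bulk tips fewer cells of a type and less RNA per cell cannot be told apart, and the part of cell make-up in these differences was not tested.

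Reads divided among transcripts and paralogs limit some of these values. Salmon gave a mean of 96.2% of the TPM of AHA1 and 96.4% of that of AHA2 to their first transcript, and 99.0% for PP2C.D2. AHA7 was given mainly to AT3G60330.3 (82.8%, 57.0% to 100% by library) and AT3G60330.4 (16.5%). The split of AHA3 among 4 transcripts was not stable, with the share of AT5G57350.3 between 0 and 98.9% by library, so only its sum is used. PP2C.D6 was split between AT3G51370.1 (80.1%) and AT3G51370.3 (19.3%, up to 65.1%). Of the 31-base words in its transcripts, AHA1 shared 2.65% and AHA2 3.52% with other members of both families, mostly with each other, while AHA7 and the 4 phosphatases shared 0%. Summing AHA1 and AHA2 reads gave a log2 change of -0.24 in XVE>>AXR3-1, beside -0.39 for AHA2 alone.

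The phosphatase transcripts were steadier, save for PP2C.D1. PP2C.D6 held a mean of 68.4 TPM over the 21 libraries (55.6 to 81.1), PP2C.D2 55.7 (37.7 to 76.1), PP2C.D5 34.5 (28.7 to 47.0) and PP2C.D1 0.672 (0.216 to 1.68). PP2C.D2, PP2C.D5 and PP2C.D6 are known as the members whose joint loss gives enlarged cells. The 4 summed to 130 to 183 TPM, beside 327 to 909 for the pumps. PP2C.D1 rested on 7 to 56 reads per library, and its within-group SD of log2 CPM was 0.53, whereas PP2C.D2 and PP2C.D5 had 0.13 each and PP2C.D6 0.09. The highest group mean in CPM was 1.14 times the lowest for PP2C.D6, 1.19 times for PP2C.D5, 1.59 times for PP2C.D2 and 3.91 times for PP2C.D1. For PP2C.D5 1 of the 6 neighbouring pairs of groups was free of overlap in CPM, and for the other 3 it was 0. In TPM it was 0 for PP2C.D5 and 1 for PP2C.D2. No such count was made over all genes.

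**Figure D3:**
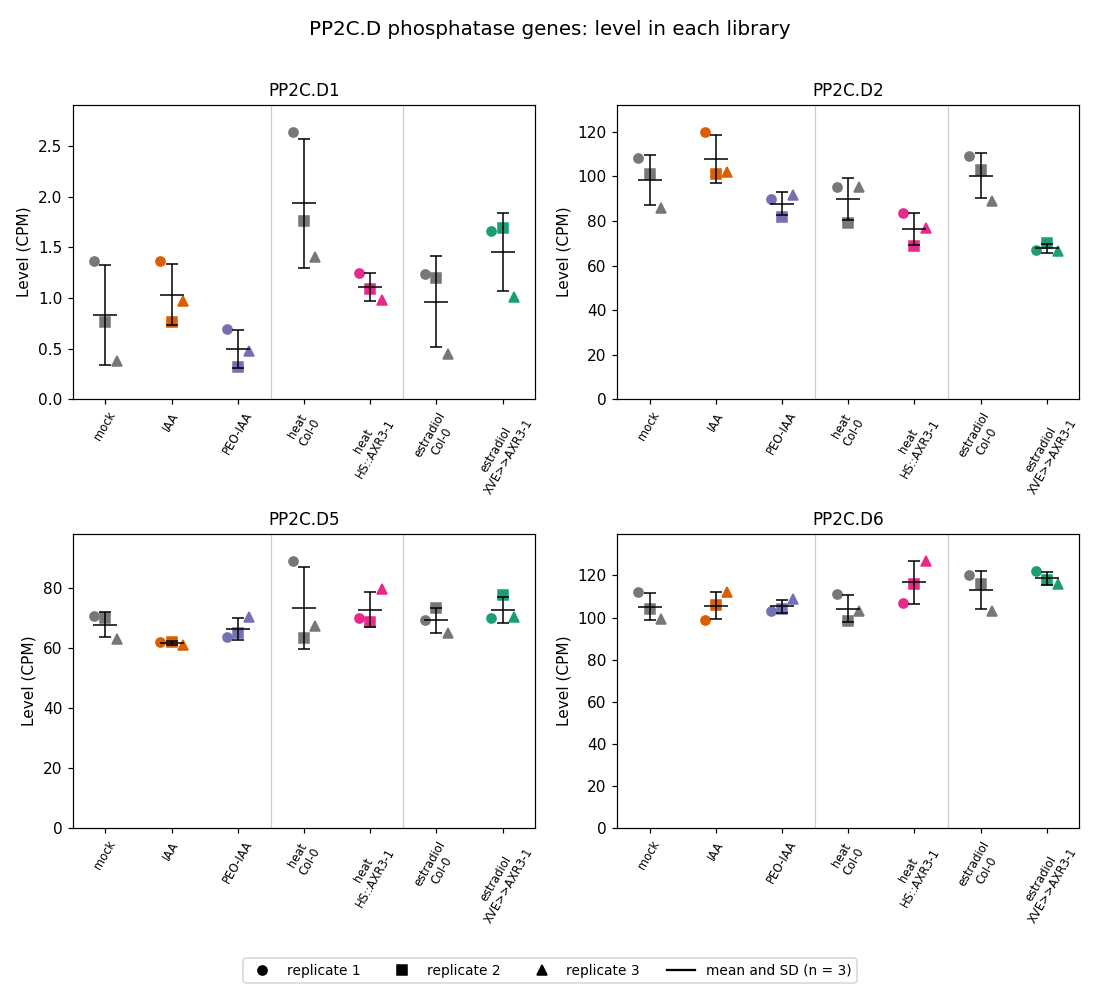
Level of each PP2C.D gene in CPM (y axis, from 0) in the 7 groups (x axis), with a symbol per replicate and the mean and SD of 3 libraries in black. PP2C.D2 is lowest in XVE>>AXR3-1, at 66.3 to 70.0 CPM, and PP2C.D1 stays under 3 CPM in every library.

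XVE>>AXR3-1 was compared with estradiol-treated Col-0 to see how pumps and phosphatases differ in a line with induced AXR3-1. Neither AXR3-1 line was sampled without induction. Induced AXR3-1 and any standing difference between a line and Col-0 therefore cannot be told apart. PP2C.D2 was the member that passed the test, with a lower level in the line. It held 67.0, 70.0 and 66.3 CPM in replicates 1 to 3 of the line and 109, 103 and 89.0 in Col-0. The groups do not overlap, and the line was lower in each of the 3 numbered pairs. The fall was 1.48-fold (log2 change -0.57, SE 0.12, 95% interval -0.81 to -0.32, edgeR adjusted p = 0.0104). PP2C.D2 also passed with the replicate block (log2 change -0.56, SE 0.08, edgeR adjusted p = 0.00134) and in DESeq2 (adjusted p = 0.0003). With the block it passed when any pair was left out (edgeR adjusted p = 0.0335, 0.0223 and 0.00634 without pairs 1 to 3). Without the block the call was lost, at a log2 change of -0.50 to -0.56, without XVE>>AXR3-1 replicate 1 (edgeR adjusted p = 0.0597), without Col-0 replicate 1 (0.0629) or 2 (0.0514), and in a fit of that experiment alone (0.0633).

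Of the 10 genes 1 was lower and 0 higher in XVE>>AXR3-1, where 1.34% of all tested genes were lower and 1.46% higher (edgeR). With the replicate number as a block, 3 were lower and 0 higher, where 3.34% and 4.18% of all genes were. The replicate numbers pair the libraries here by their shared deviations. The median log2 change was -0.12 over the 6 pumps and 0.08 over the 4 phosphatases, beside -0.015 over all tested genes.

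AHA7 had the largest difference of the pumps. It held 12.3, 21.6 and 30.7 CPM in XVE>>AXR3-1 and 37.7, 58.3 and 67.2 in estradiol-treated Col-0. Every library of the line was below every Col-0 library, and the line stood at 0.327, 0.370 and 0.457 of its numbered Col-0 partner. The 2.52-fold lower level did not pass in edgeR (log2 change -1.33, SE 0.42, 95% interval -2.22 to -0.45, adjusted p = 0.124). In a fit of the estradiol experiment alone AHA7 did not pass either (SE 0.33, edgeR adjusted p = 0.0946). It passed with the replicate block (log2 change -1.38, SE 0.23, edgeR adjusted p = 0.00252) and in DESeq2 (adjusted p = 0.0302). With the block it also passed when any pair was left out (log2 change -1.26, -1.34 and -1.50 without pairs 1 to 3, edgeR adjusted p = 0.0376, 0.0343 and 0.0121).

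AHA2 held 707, 780 and 1080 CPM in XVE>>AXR3-1 and 945, 1150 and 1270 in estradiol-treated Col-0. The groups overlap, and within pairs the line stood at 0.748, 0.676 and 0.853 of Col-0. The log2 change of -0.39 (SE 0.34, with the spread shared over all 7 groups) did not pass in edgeR (adjusted p = 1). In a fit of the estradiol experiment alone it was -0.38 with an SE of 0.19 and did not pass (edgeR adjusted p = 0.596). With the replicate block it passed (-0.40, SE 0.11, edgeR adjusted p = 0.0345). With the block it was lost when any pair was left out (log2 change -0.38, -0.31 and -0.47 without pairs 1 to 3, edgeR adjusted p = 0.228, 0.329 and 0.0683).

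The other pumps did not pass in XVE>>AXR3-1 in any fit. AHA1 held 467 to 560 CPM in the line and 434 to 543 in Col-0 (log2 change 0.06, SE 0.16), and its 95% interval was -0.27 to 0.39. AHA11 had a log2 change of -0.07 (SE 0.13), AHA3 -0.16 (SE 0.34) and AHA4 0.14 (SE 0.30). Among phosphatases PP2C.D5 had 0.07 (SE 0.11), PP2C.D6 0.08 (SE 0.09) and PP2C.D1 0.60 (SE 0.47), with edgeR adjusted p = 1 for each. The intervals of PP2C.D5 and PP2C.D6 ran from -0.16 to 0.31 and from -0.11 to 0.27.

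**Figure D4:**
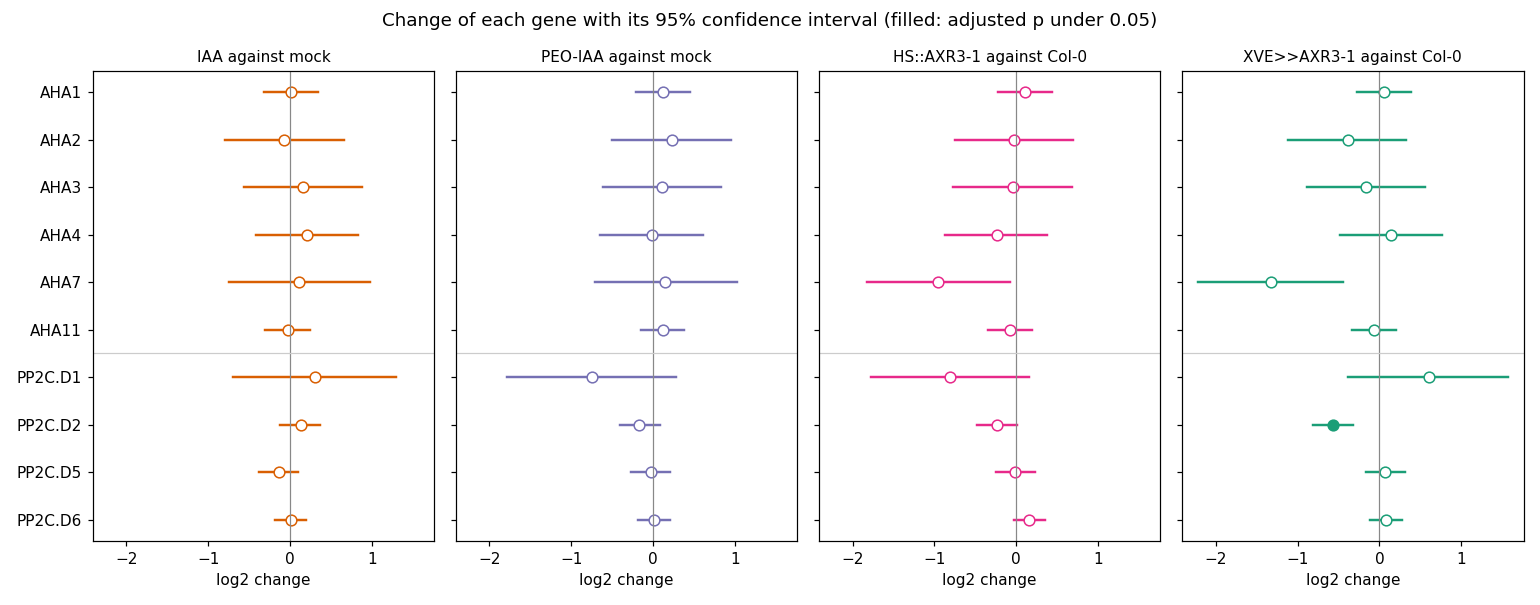
Log2 change of each gene (x axis) with its 95% confidence interval in 4 comparisons, pumps above and phosphatases below the grey line. PP2C.D2 in XVE>>AXR3-1 is the only filled point, that is, the only call in edgeR without the replicate block, and AHA7 lies left of 0 in both lines.

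Root hair genes fell in the same XVE>>AXR3-1 libraries. Of 7 markers 5 were lower in edgeR and 6 with the replicate block. RSL4, a regulator of hair growth, fell from 17.9 to 3.53 CPM (log2 change -2.33, SE 0.40, edgeR adjusted p = 0.00338). The hair expansin gene EXPA7 fell from 79.5 to 22.6 CPM (-1.81, SE 0.36, 0.009), and RHD6, which sets hair cell fate, from 25.5 to 9.82 CPM (-1.37, SE 0.25, 0.0052). The summed level of the 7 was 194, 242 and 353 CPM in the line and 405, 459 and 483 in Col-0, and 0 of the 7 were at 0 in a whole group. Touch genes, listed as a sign of handling, were higher with IAA than with mock, at a summed 378 to 433 against 106 to 170 CPM. In XVE>>AXR3-1 they moved the other way from the root hair genes, with a summed 71.2 to 130 CPM for 3 genes in the line and 37.0 to 61.2 in Col-0. Some markers of other tissues differed there too. Of 4 root cap markers NAC015 was higher (log2 change 0.75, edgeR adjusted p = 0.0309) and NAC070 lower (-1.10, 0.00866), and with the replicate block SMB was lower as well, while the summed level was 38.9 to 46.6 CPM in the line and 43.0 to 47.3 in Col-0. With the block, 1 of 2 non-hair epidermis markers (MYB66) and 1 of 8 endodermis markers (CASP5) were lower, and 1 of 4 tested green tissue genes (RBCS1A) was higher. The summed level of the non-hair markers was 47.1 to 54.0 CPM in the line and 60.1 to 78.0 in Col-0, that of the endodermis markers 590 to 900 and 711 to 826, and that of the 6 green tissue genes 20.7 to 25.4 and 9.72 to 17.4. Of the 4 phloem, 4 xylem and 4 cell division markers 0 passed in edgeR, with or without the block, or in DESeq2, and 0 had an unadjusted p under 0.05 in edgeR without it. The part of any of these in the differences of AHA7, AHA2 and PP2C.D2 was not tested.

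**Figure D5:**
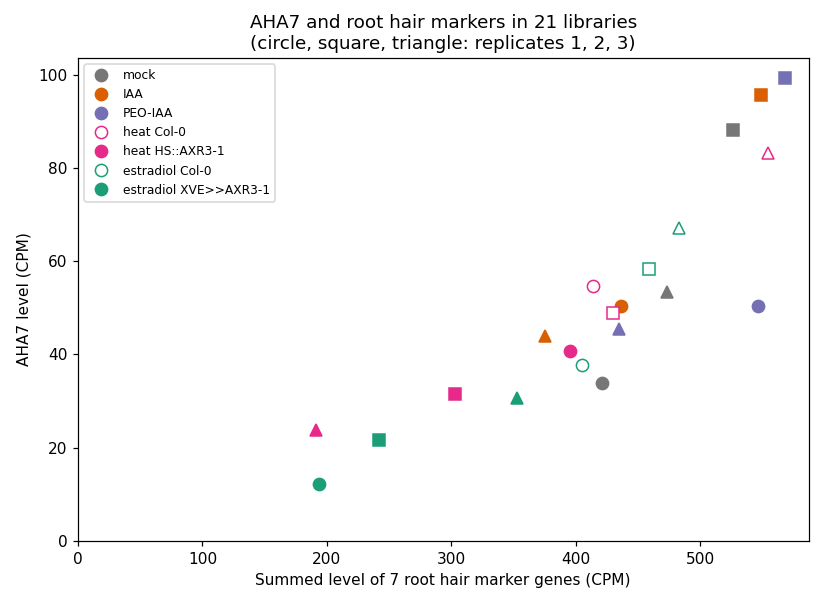
AHA7 level (y axis, CPM) against the summed level of 7 root hair marker genes (x axis, CPM) in the 21 libraries, coloured by group and with a symbol per replicate. The 3 libraries of XVE>>AXR3-1 and the 2 libraries of HS::AXR3-1 with high heat shock genes lie lowest on both axes, and the replicate 2 libraries of the chemical experiment highest on the y axis.

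HS::AXR3-1 was compared with heat-shocked Col-0 for the same question in another line. None of the 10 members passed in edgeR or DESeq2, and 1 (AHA7) had an unadjusted p under 0.05 in edgeR, where 0.0252% of all tested genes passed, that is, 5 genes. AHA7 held 40.8, 31.5 and 23.8 CPM in the line and 54.6, 48.8 and 83.2 in Col-0. The groups do not overlap. The 1.94-fold lower level had a log2 change of -0.96 (SE 0.41, 95% interval -1.83 to -0.08, edgeR adjusted p = 1). Without the line's replicate 1, the library with low heat shock genes, the log2 change was -1.17 (adjusted p = 0.92). The summed root hair markers were 395, 303 and 191 CPM in the line and 414, 430 and 554 in Col-0, with 0 of 7 called (edgeR); their part was not tested.

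PP2C.D2 held 83.4, 68.8 and 76.8 CPM in HS::AXR3-1 and 95.1, 78.9 and 95.3 in heat-shocked Col-0. The groups overlap, and the log2 change of -0.23 (SE 0.12, 95% interval -0.48 to 0.01) did not pass (edgeR adjusted p = 1). It was -0.30 without the line's replicate 1. PP2C.D1 held 1.25, 1.09 and 0.977 CPM in the line and 2.64, 1.76 and 1.40 in Col-0, with no overlap and a log2 change of -0.81 (SE 0.46, edgeR adjusted p = 1), or -0.91 without replicate 1. The remaining members had log2 changes between -0.24 for AHA4 and 0.16 for PP2C.D6. For AHA2 it was -0.03 (SE 0.34), and 0.11 without replicate 1. The median was -0.06 over the pumps and -0.12 over the phosphatases, beside 0.016 over all tested genes.

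The effects of both lines were then set against each other in an interaction term. None of the 10 members passed in edgeR or DESeq2, where 0.0252% of all tested genes did in edgeR, and 1 (PP2C.D1) had an unadjusted p under 0.05. The difference, XVE>>AXR3-1 minus HS::AXR3-1, was -0.38 (SE 0.58) for AHA7, with a 95% interval of -1.61 to 0.85, and -0.33 (SE 0.16) for PP2C.D2, with one of -0.68 to 0.01. PP2C.D1 had the largest value, 1.40 (SE 0.65, edgeR adjusted p = 1), being higher in the XVE line and lower in the HS line than in Col-0. AHA2 had -0.36 (SE 0.49). Without HS::AXR3-1 replicate 1 the difference was -0.16 for AHA7 and -0.26 for PP2C.D2, while it was 1.51 for PP2C.D1 and -0.49 for AHA2.

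IAA was compared with mock to see what 20 min of auxin does to these transcripts. None of the 10 members passed in edgeR or DESeq2, where 0.167% of all tested genes did in edgeR, and 0 of the 10 had an unadjusted p under 0.05. AHA2 held 732, 1590 and 825 CPM with IAA and 749, 1630 and 921 with mock, close within each replicate number and far apart between numbers. Its log2 change was -0.07 (SE 0.34, 95% interval -0.79 to 0.66), and with the replicate block -0.08 (SE 0.11). AHA1 had 0.01 (SE 0.16) and AHA7 0.11 (SE 0.41). PP2C.D5 was 61.0 to 62.1 CPM with IAA and 62.8 to 70.5 with mock, with no overlap and a log2 change of -0.14 (SE 0.11, edgeR adjusted p = 1). The median was 0.06 over the pumps and 0.07 over the phosphatases, beside -0.004 over all tested genes. The 3 touch genes stood at a summed 378 to 433 CPM with IAA and 106 to 170 with mock, and their part was not tested.

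With PEO-IAA against mock 0 of the 10 members passed in edgeR or DESeq2, where 0.0353% of all tested genes did in edgeR, and 0 had an unadjusted p under 0.05. AHA2 held 913, 2060 and 889 CPM with PEO-IAA (log2 change 0.23, SE 0.34, 95% interval -0.50 to 0.95). AHA7 had 0.15 (SE 0.41) and AHA11 0.12 (SE 0.13). PP2C.D1 had -0.75 (SE 0.49) and PP2C.D2 -0.17 (SE 0.12), and PP2C.D5 and PP2C.D6 lay at -0.03 and 0.01. The median was 0.12 over the pumps and -0.10 over the phosphatases, beside 0.004 over all tested genes.

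IAA and PEO-IAA share their mock, so they were also compared directly. The doses were 10 nM and 10 µM, so compound and dose cannot be told apart. None of the 10 members passed in edgeR or DESeq2, where 0.631% of all tested genes did in edgeR and 1.72% with the replicate block. At an unadjusted p under 0.05 there were 2 in edgeR without the block, PP2C.D1 and PP2C.D2. With the block AHA2 was under it as well (log2 difference -0.27, SE 0.11, edgeR unadjusted p = 0.0255, adjusted p = 0.402). PP2C.D2 held 120, 101 and 102 CPM with IAA and 89.7, 81.9 and 91.4 with PEO-IAA, with no overlap between the groups. The log2 difference was 0.29 (SE 0.12, 95% interval 0.05 to 0.54, edgeR adjusted p = 0.708, and 0.147 with the block). PP2C.D1 held 1.36, 0.763 and 0.973 CPM with IAA and 0.693, 0.317 and 0.474 with PEO-IAA, without overlap (1.05, SE 0.49, edgeR adjusted p = 1). PP2C.D5 did not overlap either, at 61.0 to 62.1 against 63.5 to 70.3 CPM (-0.11, SE 0.11, edgeR unadjusted p = 0.363). The share of all tested genes without overlap was not counted, here or in the other comparisons. AHA2 had -0.29 (SE 0.34, 95% interval -1.02 to 0.43) and the other pumps between -0.15 and 0.23. Without the replicate 2 libraries of all 3 groups the values were 0.29 for PP2C.D2, 0.99 for PP2C.D1 and -0.21 for AHA2, and again none passed.

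The control groups of both lines differ in treatment and in experiment at once, so setting Col-0 after heat beside Col-0 after estradiol only shows how far apart the baselines lie. None of the 10 members passed in edgeR or DESeq2, where 1.54% of all tested genes did in edgeR, and 1 (PP2C.D1) had an unadjusted p under 0.05. PP2C.D1 was at 2.64, 1.76 and 1.40 CPM with heat and 1.24, 1.20 and 0.446 with estradiol, with no overlap (log2 difference 1.01, SE 0.46, adjusted p = 0.288). The other 9 members had log2 differences between -0.45 for AHA3 and 0.23 for AHA4. AHA2 lay at 1100 ± 109 and 1120 ± 164 CPM (SD, n = 3).

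The rest of the pathway was read from lists. Of the other 5 AHA genes 3 were tested (AHA5, AHA8 and AHA10). In each of the 7 comparisons 0 passed in edgeR or DESeq2 and 0 had an unadjusted p under 0.05; AHA6 and AHA9, left out as too low, are pumps known from pollen. Of the other 5 PP2C.D genes all were tested and 0 passed in edgeR or DESeq2, with 0 to 2 at an unadjusted p under 0.05 by comparison. With the replicate block PP2C.D4 was higher in XVE>>AXR3-1 (35.2 against 27.6 CPM, log2 change 0.35, edgeR adjusted p = 0.0328) and PP2C.D7 lower (7.32 against 11.1 CPM, -0.60, 0.0318), with a list median of 0.07. PP2C.D8 stood at 96.0 ± 14.4 CPM with IAA and 66.9 ± 11.7 with mock (SD, n = 3, log2 change 0.52, SE 0.15), which did not pass (edgeR adjusted p = 0.387).

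Of 18 SAUR genes, the inhibitors of the phosphatases, 8 had enough reads to be tested, and 10 did not. SAUR24 was the SAUR called in edgeR, in IAA against PEO-IAA, at 1.25 ± 0.227 CPM (SD, n = 3) with IAA and with no read in the PEO-IAA libraries (edgeR adjusted p = 0.0342), and it did not pass in DESeq2 (adjusted p = 0.307). It was at 0.035 CPM in mock and had no read in the heat and estradiol libraries, so it passed the filter on low counts only through the IAA group, where it is high, and its call says nothing of the list. SAUR19 to SAUR24 are near-identical copies, so the split of reads among them is uncertain. With the replicate block SAUR72 was lower with IAA than with PEO-IAA (12.4 against 27.3 CPM, edgeR adjusted p = 0.0487), which DESeq2 called without the block (adjusted p = 0.00637), and SAUR32 was lower in XVE>>AXR3-1 than in Col-0 (13.9 against 24.9 CPM, 0.0274). In the other 6 comparisons 0 SAUR genes passed in edgeR without the block or in DESeq2, with 0 to 2 at an unadjusted p under 0.05. Over the other 7 tested SAUR genes, without SAUR24, the median log2 change was 0.27 with IAA, -0.11 with PEO-IAA, -0.56 in XVE>>AXR3-1 and -0.23 in HS::AXR3-1.

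Of 13 genes for 14-3-3 proteins, which hold phosphorylated pumps active, 11 were tested and 0 passed in edgeR or DESeq2 in the 7 comparisons, with 0 to 1 at an unadjusted p under 0.05. Their medians lay between -0.12 and 0.02. With the replicate block GRF11 was lower in XVE>>AXR3-1 (4.25 against 7.61 CPM, log2 change -0.84, edgeR adjusted p = 0.0126). Of 14 kinases, receptors and partners of the pumps 13 were tested. In XVE>>AXR3-1 PKS5, a kinase that inhibits AHA2, rose (49.5 ± 3.45 against 32.9 ± 2.36 CPM, SD, n = 3, log2 change 0.59, SE 0.16, edgeR adjusted p = 0.0487). With the block TMK4, a receptor kinase of the family that phosphorylates pumps on auxin, was higher there as well (114 against 80.6 CPM, 0.50, edgeR adjusted p = 0.00499). RIN4, a pump partner in stomata, was lower in heat-shocked than in estradiol-treated Col-0 (15.6 against 25.9 CPM, log2 difference -0.73, edgeR adjusted p = 0.0371). In the other 5 comparisons 0 of this list passed in edgeR or DESeq2, with 0 to 2 at an unadjusted p under 0.05.

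The genes whose log2 CPM followed AHA2 most closely over the 21 libraries, by Pearson correlation, were AT2G47390 (0.884), AT2G32240 (0.882), EMB2754 (AT4G36630, 0.878), MFP2 (AT3G06860, 0.863) and AMSH1 (AT1G48790, 0.862). For PP2C.D1 they were AT3G03420 (0.856), DUF4 (AT2G46840, 0.808), AT1G13050 (0.801), AT5G53080 (0.790) and PAI1 (AT1G07780, 0.789). The 21 points share groups, experiments and replicate numbers, and for AHA2 the 3 high libraries of the chemical experiment, so these values describe likeness in these libraries and carry no test.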

How the data were processed

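The deposited files give, for each of 48268 transcripts, an estimated (expected) count of reads and a TPM value, per the file headers. Salmon 1.3.0 made these values on TAIR10, per the submitters' processing notes. The sources used here name no library layout or strand option, so overlapping genes are uncertain. For each locus the expected counts of its transcripts were added and the sum rounded, which moved library totals by at most 2.3e-05%, and deposited TPM was summed per locus. CPM were computed on TMM-scaled library sizes. edgeR 4.0.16 in R 4.3.3 fitted all 21 libraries with a coefficient per group, quasi-likelihood tests, the default low-count filter and Benjamini-Hochberg adjustment over all 19809 genes; a call is an adjusted p under 0.05. With 14 residual degrees of freedom the groups share an estimate of the spread. On simulated counts the fit was checked for known fold changes.

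The members, gene lists and tests were chosen with earlier results of these data known. Named genes were all 10 members, AXR3, up to 3 called genes of each list per comparison and direction, and for AHA2 and PP2C.D1 the 5 genes most like them; PP2C.D8, RSL4, EXPA7, RHD6 and genes called with the replicate block alone were named after their values were seen.

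Replicate numbers come from the labels. Deviations from group means correlated between same-numbered libraries at 0.52 to 0.78 in the chemical and 0.49 to 0.70 in the estradiol experiment, so these numbers were taken as paired; in the heat experiment the values were 0.09, 0.45 and 0.28, and they were not. The alternatives were DESeq2 1.42.0, median-of-ratios scaling, no filter, the most abundant transcript, an effective-length offset, each experiment alone, the replicate block, summed AHA1 and AHA2 reads and each library left out. No libraries were counted as duplicates, since the chi-square per gene between replicates was 20.9 to 129.

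Upstream bases and gene spans were read from the RefSeq genome TAIR10.1, where 99.6% of the matched transcripts, and 24 of 24 of the members, had the spliced length given in the files.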

Additional observations from a re-analysis of the deposited data

How the results depend on the processing

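In XVE>>AXR3-1 the count of members called, 1 in the main test, was 3 with the replicate block, 2 with DESeq2, 0 in a fit of that experiment alone, and 0 to 1 without any 1 library. With the replicate block and estradiol pair 1, 2 or 3 left out, an alternative added after seeing the data, it was 2 each time. In HS::AXR3-1 the count was 0, and 0 in the fit with the replicate block (AHA7 adjusted p = 0.106 in edgeR, log2 change -0.94); with the block and without heat pair 1, added after seeing the data, it was 1, AHA7 (log2 change -1.21, edgeR adjusted p = 0.0275), where 0.907% of genes were lower. The heat numbers were not taken as paired, since same-numbered libraries correlated at 0.09, 0.45 and 0.28. This fit is therefore not read as a paired result, and the cause of these changes was not tested. The counts of the other 5 comparisons were 0 under every alternative run. Of 1034 recomputed member values 916 kept direction and side of the threshold, 4 lost and 7 gained a call, and 107 that were not called on either side changed sign, with a main size of up to 0.3. The block changed no other member's call. Over all genes the calls ranged widely over the alternatives that leave out no library of the experiment compared. They ran from 391 to 1489 in XVE>>AXR3-1 (556 in the main test) and from 0 to 86 in HS::AXR3-1 (5). With IAA they ran from 11 to 133 (33), and between IAA and PEO-IAA from 91 to 341 (125). The lows of 0 and 11 came from fits of the experiment alone. PP2C.D1, at 7 to 56 reads per library, is limited by depth. Proteins and pump activity were not measured.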
